A study of Mus musculus with 3 samples.

Results

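The genes described here make cholesterol and fatty acids or set the acyl chains of membrane phospholipids. They are 37 named members, chosen by function: enzymes of mevalonate and sterol synthesis, enzymes of fatty acid synthesis, elongation and desaturation, the SREBP control proteins, and the lysophosphatidylcholine acyltransferases. All 37 have a row in the deposited table of 34617 genes. Transcripts were measured by sequencing of ribosomal RNA-depleted total RNA from sorted cells of the main olfactory epithelium of mice aged 4 weeks. The mOSN library (mature olfactory sensory neurons) came from cells positive for EGFP in OMP-ires-EGFP mice of strain C57BL/6J, where the reporter follows the olfactory marker protein gene Omp. The O/Tet3 library came from OMP-tTA / tetO-Tet3-GFP mice of strain Fvb, in which a tetracycline transactivator expressed from Omp drives a transgene of Tet3, an enzyme that oxidises 5-methylcytosine. The driver limits transgene expression to cells that express Omp. The reporter, the strain and the library differ together with the transgene, so these cannot be told apart. Each group has 1 library, the labels do not say whether animals were pooled, and no test between groups was possible.

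Cholesterol is built from acetyl-CoA through mevalonate, farnesyl diphosphate and squalene, and most of these enzymes share control by the sterol regulatory element-binding proteins (SREBPs). When membrane sterol is low, the escort protein Scap carries SREBPs from the endoplasmic reticulum to the Golgi apparatus, where they are cut and released to the nucleus; Insig proteins hold Scap back when sterol is plentiful. Neurons carry large areas of membrane in axons, dendrites and cilia, and the olfactory neuron's cilia hold its odorant receptors.

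The deposited log2 values were turned back to linear values, which are called values below because the file does not name their unit. Genes that reached a value of 1 in one library or both were compared. The log2 ratio below is log2((O/Tet3 value + 1)/(mOSN value + 1)), which understates differences of low genes, and a gene is called higher or lower where this ratio reaches 1 or −1, that is, 2-fold of value + 1. Tet3 stood at 3.72 in mOSN against 145 in O/Tet3, which goes with the labels. The 6 largest rows took up 90.05% of the mOSN total and 96.9% of the O/Tet3 total. Whole-number steps among low genes put the worth of a single read 1.89 times higher in O/Tet3 than in mOSN. This is the most frequent ratio of low rows, held by 99 of 3757. Low olfactory receptor genes in O/Tet3 put 1 value unit at about 19.9 reads there. The mOSN figure of 37.6 reads was derived from it by the factor of 1.89 and was not measured separately. Beside some folds a 95% exact binomial interval is given that assumes this worth of a read. The members' transcript lengths were not used, so it is approximate, and it covers counting error only, since amplified reads without molecular identifiers are not independent molecules.

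Most lipid synthesis genes were higher in the O/Tet3 library by less than 3-fold, and 1 acyltransferase, Lpcat4, was far lower. Of the 37 members, 32 could be compared. The log2 ratio was above 0 in 25 of them and below 0 in 7, against 60.5% above 0 and 39.5% below 0 among all 12943 compared rows. At the 2-fold threshold 8 members were higher, or 25%, where 16.5% of all compared rows were. 1 member was lower, where 12% of all compared rows were. The median log2 ratio of the compared members was 0.64, beside 0.21 over all compared rows. The median over rows at 1 or more in both libraries was also 0.21, and after this shift was subtracted 4 members were higher and 3 lower, against 11.3% and 15.1% of all rows. The 4 still higher were Scd2, Acly, Sc4mol and Insig2, and the 3 lower were Lpcat4, Scap and Lpcat1. Of the compared members, 26 reached a value of 1 in both libraries, 5 only in O/Tet3 (Acat2, Mvd, Insig1, Elovl1 and Elovl5) and 1 only in mOSN (Scd1). The 5 that passed only through O/Tet3 had to lie higher there, and 2 of them, Acat2 and Insig1, are among the 8 called higher. The counting interval of the fold left out 1 for 28 of the 32 compared members and held it for Tm7sf2, Scd1, Elovl1 and Fads1. The same count was not made over all compared rows. A fold of 1 also takes no account of the shift of all rows, so this count does not set the members apart from other rows. 5 members were under the floor in both libraries: Hmgcs1, Acacb, Fasn, Elovl6 and Fads2.

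**Figure D1:**
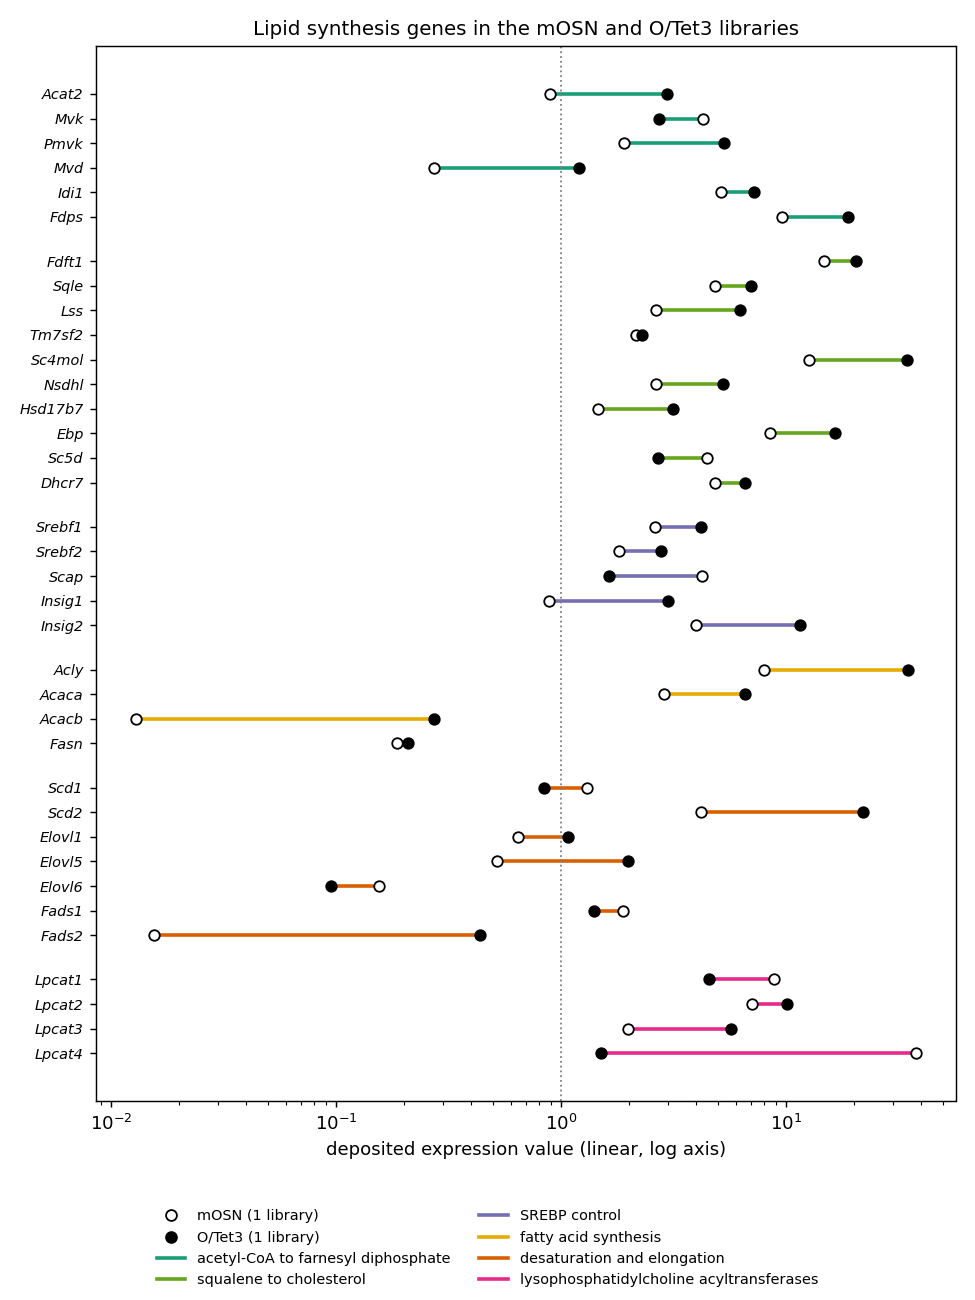
Values of each member in the mOSN library (open circles) and the O/Tet3 library (filled circles) on a log axis, in order of pathway and joined by a line coloured by role; the dotted line marks a value of 1. Filled circles lie to the right for most genes, and Lpcat4 (38.1 and 1.51) has the longest line to the left. Hmgcs1, listed at 0 in both libraries, cannot be drawn on this axis.

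The early steps, from acetyl-CoA to farnesyl diphosphate, were mostly higher in the O/Tet3 library. Of 7 genes 6 could be compared, 5 had a log2 ratio above 0 (60.5% of all compared rows), and the median was 0.85. 2 were called higher and 0 lower, against 16.5% and 12% of all compared rows. Acat2 and Mvd, among the 5 above 0, reached the floor only in O/Tet3 and so had to lie higher there. Acat2, the cytosolic thiolase that joins acetyl-CoA units, stood at 0.899 in mOSN against 2.97 in O/Tet3, and so reached the floor only in O/Tet3. Its near-identical paralog Acat3, from which its reads may not be separable, was at 2.91 and 5.57. Hmgcs1, the synthase of the next step, was listed at 0 in both libraries. An exact 0 in such a table can be a failed estimate. Lars2, a mitochondrial synthetase that every cell uses, is also listed at 0 in mOSN, but at 6489 in O/Tet3. Hmgcs1 is at 0 in both libraries, so the cases differ. Whether the listing of Hmgcs1 is a failed estimate was not tested, and it is not read as a level. The kinases of mevalonate went opposite ways. Mevalonate kinase Mvk stood at 4.29 in mOSN against 2.73 in O/Tet3, 1.57-fold lower (counting interval 1.15 to 2.19). Phosphomevalonate kinase Pmvk was at 1.90 and 5.33, 2.81-fold higher (2.07 to 3.87). The decarboxylase Mvd was at 0.273 and 1.20, which is 4.40-fold in the values but rests on few reads (2.09 to 10.6) and stayed under a log2 ratio of 1. Idi1, the isomerase that makes the second isoprenoid building block, was at 5.14 and 7.19. Fdps, which joins these blocks to farnesyl diphosphate, was at 9.60 and 18.8, 1.96-fold higher (1.69 to 2.27).

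The enzymes from squalene to cholesterol were mostly higher as well, by small folds. All 10 could be compared, and 9 had a log2 ratio above 0 (60.5% of all compared rows), with a median of 0.60. 1 was called higher, or 10%, which is less than the 16.5% of all compared rows. 0 were lower, where 12% of all compared rows were. Fdft1, squalene synthase, which commits farnesyl diphosphate to sterols, stood at 14.7 in mOSN against 20.5 in O/Tet3, 1.39-fold higher (counting interval 1.22 to 1.59). Squalene epoxidase Sqle was at 4.85 and 6.98, a similar fold of 1.44. Lanosterol synthase Lss, which closes the sterol rings, was at 2.64 and 6.25, and its log2 ratio of 0.99 lay just under the threshold. Tm7sf2, the sterol reductase that acts before the removal of the remaining ring methyl groups, was at 2.15 and 2.30, and its approximate counting interval held 1. Sc4mol, also named Msmo1, the oxygenase that starts that removal, was at 12.6 and 34.7. Its 2.75-fold difference (2.44 to 3.09; log2 ratio 1.39) was the only call among these 10 genes. The next enzymes of demethylation were higher by closer folds. Nsdhl, a sterol dehydrogenase encoded on the X chromosome, was at 2.66 and 5.27, or 1.98-fold higher. Hsd17b7, the ketoreductase of the same cycle, was at 1.46 and 3.14, or 2.15-fold higher. Ebp, the isomerase that shifts the ring double bond, was at 8.54 and 16.6, or 1.94-fold higher. Dhcr7, the reductase that finishes cholesterol on one branch, was at 4.84 and 6.57, 1.36-fold higher (1.08 to 1.71). Sc5d, the desaturase just before it, was lower, at 4.48 in mOSN and 2.70 in O/Tet3, a 1.66-fold difference (1.21 to 2.29).

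The sterol demethylase Cyp51, which is no member, was at 3.91 and 7.87, within the range of the members. The summed value of the 17 member enzymes was 81.1 in mOSN and 143 in O/Tet3, a 1.77-fold difference. Sc4mol held 15.6% of that sum in mOSN and 24.2% in O/Tet3, while Mvk held 5.29% and 1.91% and Sc5d 5.53% and 1.88%. The sum counts Hmgcs1 as 0.

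Sterol synthesis genes are known for promoters in which SREBPs act together with NF-Y, a factor that binds the letters CCAAT. RefSeq promoter sequences on build GRCm38.p6 were found for 31 of the 37 members (Sc4mol under its current name Msmo1), and the 250 bases before each annotated start were searched on both strands. CCAAT was present before 13 of 14 sterol enzymes with a sequence, or 92.9%, and before 10 of the other 17 members. It was present before 37.5% of all 27025 genes in the table and 40.8% of the 8086 whose symbol matches a compared row. 2 or more copies were present before 9 of the 14 sterol enzymes, against 15.1% of the genes matching a compared row. A window of a gene with several annotated starts counts once, by the start with most copies. The GC box GGGCGG was before 13 of the 14 and 62.1% of genes matching a compared row, and the E-box CACGTG before 3 of the 14 and 9.55%. The letters TCACNCCAC, where N is any base, a short form of the sterol regulatory element that SREBPs bind, were before Hmgcs1 alone among the 31 members and before 1.22% of all genes. SREBPs also bind other forms of this element, which were not searched. These windows are descriptions of sequence: a match is not a bound site, and SREBP binding was not measured. The sequences below were picked after their values were seen, to show enzymes that were higher (Sc4mol, Ebp), lower (Mvk) or listed at 0 (Hmgcs1), and the acyltransferases described last (Lpcat3, Lpcat4). Each runs 5′ to 3′ along the gene, ending at the base before the start. Capitals mark CCAAT or its reverse complement ATTGG and, in Hmgcs1, TCACNCCAC.
Sc4mol: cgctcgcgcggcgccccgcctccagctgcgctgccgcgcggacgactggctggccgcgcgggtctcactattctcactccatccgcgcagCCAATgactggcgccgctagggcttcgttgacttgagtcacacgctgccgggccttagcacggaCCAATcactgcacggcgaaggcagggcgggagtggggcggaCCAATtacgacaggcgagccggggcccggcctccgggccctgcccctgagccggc
Ebp: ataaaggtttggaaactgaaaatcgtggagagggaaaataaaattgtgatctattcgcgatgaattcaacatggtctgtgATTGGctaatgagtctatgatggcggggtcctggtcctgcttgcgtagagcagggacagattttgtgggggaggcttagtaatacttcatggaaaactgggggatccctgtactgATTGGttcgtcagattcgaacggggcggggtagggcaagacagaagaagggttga
Hmgcs1: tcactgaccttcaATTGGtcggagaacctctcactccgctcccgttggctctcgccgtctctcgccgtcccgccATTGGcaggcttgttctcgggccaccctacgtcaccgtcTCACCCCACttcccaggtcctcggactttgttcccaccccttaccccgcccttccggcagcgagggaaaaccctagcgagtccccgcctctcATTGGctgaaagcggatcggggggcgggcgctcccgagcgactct
Mvk: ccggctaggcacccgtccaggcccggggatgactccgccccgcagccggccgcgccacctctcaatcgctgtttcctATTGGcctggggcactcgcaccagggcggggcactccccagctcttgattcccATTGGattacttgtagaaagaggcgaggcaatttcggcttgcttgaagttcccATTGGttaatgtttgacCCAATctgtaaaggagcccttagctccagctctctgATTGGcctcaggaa
Lpcat3: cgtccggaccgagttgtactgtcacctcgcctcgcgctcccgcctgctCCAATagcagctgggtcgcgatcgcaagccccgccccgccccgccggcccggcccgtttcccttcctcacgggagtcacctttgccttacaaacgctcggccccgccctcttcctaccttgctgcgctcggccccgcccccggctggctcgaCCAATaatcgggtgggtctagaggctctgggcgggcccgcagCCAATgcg
Lpcat4: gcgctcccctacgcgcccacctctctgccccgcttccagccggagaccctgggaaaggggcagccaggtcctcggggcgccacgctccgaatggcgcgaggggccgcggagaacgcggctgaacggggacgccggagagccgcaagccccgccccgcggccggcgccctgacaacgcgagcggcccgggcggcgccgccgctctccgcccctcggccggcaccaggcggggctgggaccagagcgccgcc
The windows lie at chr8:64733579-64733828 on the minus strand for Sc4mol, chrX:8193513-8193762 on the minus strand for Ebp, and chr13:119690101-119690350 on the plus strand for Hmgcs1. They lie at chr5:114444019-114444268 on the plus strand for Mvk, chr6:124662854-124663103 on the plus strand for Lpcat3, and chr2:112239591-112239840 on the plus strand for Lpcat4. Mvk, which was lower in O/Tet3, has 5 copies of CCAAT, Sc4mol has 3 and Ebp has 2; the relation of copies to the differences was not tested. Among the 8 members called higher, 7 had a sequence and 5 of them held CCAAT, beside 23 of all 31 members with a sequence. Acly and Acat2 did not hold it. The start sites are RefSeq's and may differ from those used in olfactory neurons.

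The SREBP control genes did not share a direction. Of 5 compared genes, 4 had a log2 ratio above 0 (60.5% of all compared rows), and the median was 0.53. 2 were called higher and 0 lower, against 16.5% and 12% of all compared rows. The SREBP genes themselves were a little higher: Srebf1, whose products act mostly on fatty acid genes, stood at 2.61 in mOSN against 4.22 in O/Tet3, 1.61-fold higher (counting interval 1.20 to 2.19). Srebf2, which acts mostly on sterol genes, was at 1.81 and 2.80, 1.54-fold higher (1.07 to 2.25). Both Insig genes, whose proteins restrain SREBP, were called higher. Insig1, itself a known SREBP target, was at 0.882 and 3.01, 3.41-fold higher (2.21 to 5.43). It reached the floor only in O/Tet3 and so had to lie higher there. Its log2 ratio was 0.88, under the threshold, once the shift of all rows was subtracted. Insig2 was at 3.99 and 11.5, 2.89-fold higher (2.34 to 3.57). The ratio of the Insig genes to each other was nearly the same in both libraries, with Insig2 at 81.9% of their sum in mOSN and 79.3% in O/Tet3. Scap, the escort that Insig proteins hold, was lower, at 4.26 in mOSN and 1.64 in O/Tet3. Its 2.60-fold difference (1.75 to 3.85) lay just short of the threshold for a call, which it passed once the shift of all rows was subtracted. Of 9 other genes of SREBP transport, cleavage and turnover, all 9 could be compared, with a median log2 ratio of 0.33. The proteases Mbtps1 (6.03 and 6.95) and Mbtps2 (2.70 and 3.73), which cut SREBPs, were close in both libraries. Sec23a, a coat protein of vesicles that leave the endoplasmic reticulum, was the 1 call, at 3.63 and 10.1.

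**Figure D2:**
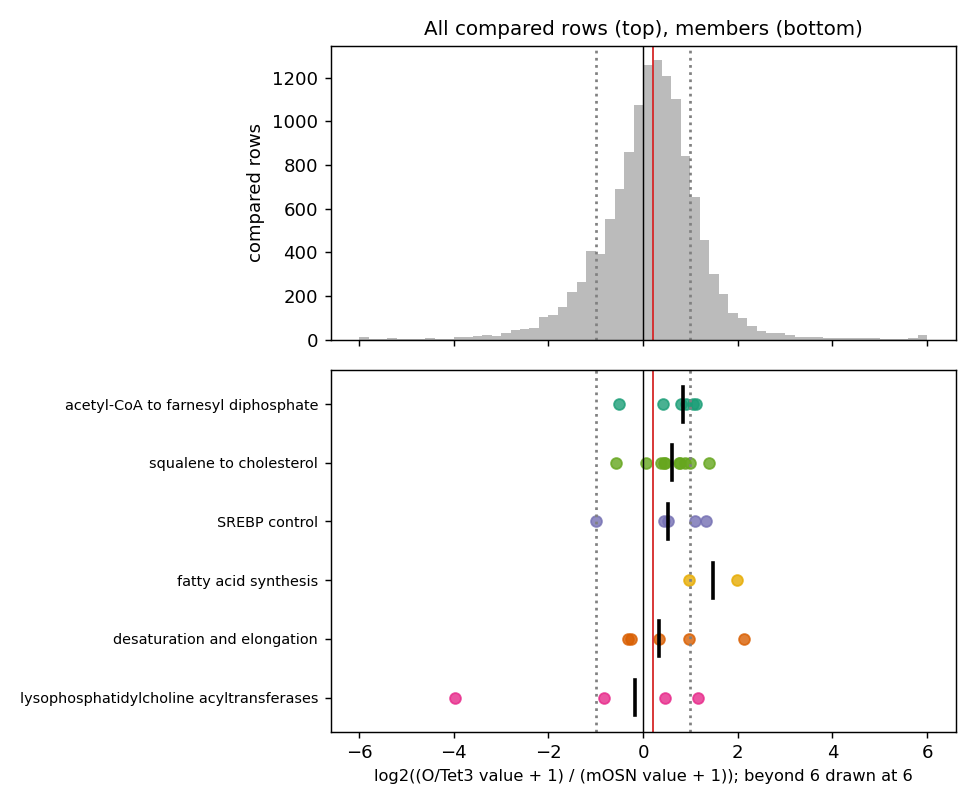
Top, the log2 ratio of O/Tet3 over mOSN (value + 1) for all 12943 compared rows; bottom, the 32 compared members, one point a gene, by role, with black bars at each role's median. Dotted lines mark 2-fold, and the red line the median of all compared rows (0.21). Points lie mostly between 0 and the right dotted line, Acly (1.99) and Scd2 (2.14) lie farthest right and Lpcat4 (−3.96) farthest left.

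In fatty acid synthesis, 2 of 4 genes could be compared, and both had values higher in O/Tet3. 1 was called higher and 0 lower, where 16.5% and 12% of all compared rows were. Acly, which makes cytosolic acetyl-CoA from citrate and so feeds both pathways, stood at 8.03 in mOSN against 34.8 in O/Tet3. That is 4.33-fold higher (counting interval 3.78 to 4.98), a log2 ratio of 1.99, and the 400th highest of 12943 compared rows. Acaca, the carboxylase that makes malonyl-CoA, was at 2.87 and 6.59, 2.30-fold higher (1.77 to 2.99), with a log2 ratio of 0.97 just under the threshold. Acacb, the mitochondrial form of that carboxylase, was at 0.0128 and 0.272, and Fasn, the synthase that builds palmitate, at 0.187 and 0.210. Both were under the floor in both libraries, so no call was made. In the list for acetyl-CoA and NADPH supply, which also holds the nuclear receptor Nr1h2, 1 of 5 compared genes was called higher and 0 lower. Me1, the malic enzyme that makes NADPH, was at 3.58 and 10.4. Acss2, which makes acetyl-CoA from acetate, was at 15.6 and 9.74, within 2-fold.

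Among the desaturases and elongases, the largest difference was in Scd2, the stearoyl-CoA desaturase known as the main form in brain. It stood at 4.22 in mOSN against 21.9 in O/Tet3, 5.21-fold higher (counting interval 4.33 to 6.28), a log2 ratio of 2.14 and the 324th highest of all compared rows. Its paralog Scd1 was at 1.31 and 0.843. The approximate counting interval of Scd1, which takes no account of transcript length, held 1 (0.354 to 1.16 as O/Tet3 over mOSN). Scd2 held 76.3% of the summed Scd1 and Scd2 values in mOSN and 96.3% in O/Tet3. Elovl5, an elongase of polyunsaturated chains, was at 0.522 and 2.00, with a log2 ratio of 0.98. Elovl1, an elongase of very long saturated chains, was at 0.645 and 1.08. The desaturases of polyunsaturated chains were low in both libraries, Fads1 at 1.90 and 1.41 and Fads2 at 0.0154 and 0.437. Elovl6, which extends palmitate, was at 0.155 and 0.0953. Elovl1 and Elovl5 reached the floor only in O/Tet3, and Scd1 only in mOSN, so each had to lie higher in that library. The approximate counting interval of Elovl1 held 1. Of the 7 genes, 5 could be compared. Their median of 0.34, which is the ratio of Elovl1 and so depends on the floor, was the lowest of the synthesis groups. 1 was called higher and 0 lower, where 16.5% and 12% of all compared rows were.

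The lysophosphatidylcholine acyltransferases, which put a new acyl chain on phospholipids that have lost one, spread widest among the role groups, with log2 ratios from −3.96 to 1.16. Lpcat4 stood at 38.1 in mOSN against 1.51 in O/Tet3. It was 25.3-fold lower (counting interval 17.6 to 37.6), and the 48th lowest of 12943 compared rows. It was the only member called lower at the main threshold. Lpcat1, known for saturated chains in lung surfactant, was at 8.82 and 4.56, 1.94-fold lower (1.52 to 2.46). Lpcat2 was at 7.10 and 10.2, 1.43-fold higher (1.19 to 1.73). Lpcat3, which prefers polyunsaturated chains and is a known target of the liver X receptors, was at 2.00 and 5.69, 2.85-fold higher (2.11 to 3.87). So 2 of the 4 genes were lower and 2 higher, and their median was −0.18. The summed value of the 4 genes was 56.0 in mOSN and 21.9 in O/Tet3. The sum of Lpcat1, Lpcat2 and Lpcat3 was 17.9 and 20.4, so the lower sum in O/Tet3 lies in Lpcat4. If the values are per length, as Cuffdiff prints, Lpcat4 held 68.0% of the 4 genes in mOSN and 6.87% in O/Tet3, and Lpcat2, at 12.7% in mOSN, held 46.4% in O/Tet3. The promoter windows printed above hold 3 copies of CCAAT in Lpcat3 and 0 in Lpcat4, and a relation of copies to direction was not tested.

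**Figure D3:**
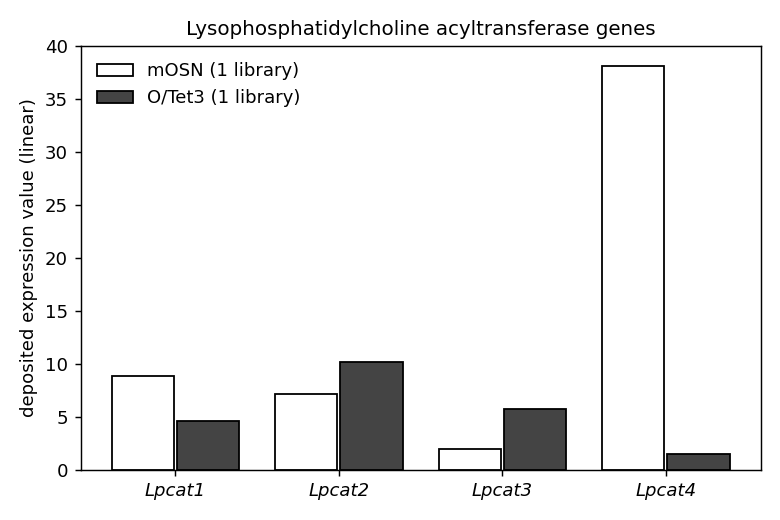
Values of the 4 lysophosphatidylcholine acyltransferase genes, open bars for mOSN and filled bars for O/Tet3, 1 library each and so without error bars. Lpcat4 has the highest bar in mOSN (38.1) and the lowest in O/Tet3 (1.51), while Lpcat3 goes from 2.00 to 5.69.

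The other genes of lipid metabolism were taken in 8 lists chosen by function. Of 86 compared genes in these lists, 17 were called higher, or 19.8%, and 4 lower, or 4.65%, against 16.5% and 12% of all compared rows, so the higher calls lay near the background. The log2 ratio had a median of 0.41. 8 of the 86, among them 4 of the 17 called higher, reached the floor only in O/Tet3 and so had to lie higher there. In fatty acid oxidation, the pathway that breaks down what the members make, 5 of 10 compared genes were called higher (16.5% of all rows) and 0 lower. All 10 had a log2 ratio above 0 (60.5% of all rows), and the median was 1.01. Acadm, the medium-chain acyl-CoA dehydrogenase, was at 5.14 and 32.8, Acaa2, a mitochondrial thiolase, at 1.21 and 6.84, and the hydratase Echs1 at 8.02 and 25.6. Of the carnitine palmitoyltransferases, Cpt1a (0.162 and 0.0761) and Cpt1b (0.730 and 0.202) were under the floor and lower in O/Tet3. Cpt1c (2.58 and 5.29) and Cpt2 (3.01 and 5.16) were compared and higher there, without a call. Acadl, also under the floor, was at 0.126 and 0.224. In sterol uptake, transport and storage 4 of 12 compared genes were called higher and 0 lower (16.5% and 12% of all rows), with a median of 0.62. But 3 of these 4, Abca1, Lipa and Mylip, reached the floor only in O/Tet3. Abca1, the pump that exports cholesterol, had the largest difference, at 0.238 and 8.10, and the lysosomal sterol genes Npc2 (1.01 and 4.38) and Lipa (0.937 and 3.64) followed. In the sterol and isoprenoid list the 1 call was Cyp46a1, the hydroxylase that turns over cholesterol in neurons, at 0.117 and 1.35, which also reached the floor only in O/Tet3.

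The 4 lower calls lay in 3 of the lists: elongation and desaturation partners, fatty acid activation and binding, and glycerophospholipid synthesis and acylation. Fads6, a desaturase-like gene, stood at 12.2 in mOSN against 1.22 in O/Tet3, in a list of elongation and desaturation partners with a median of −0.15. Hsd17b12, the reductase of the elongation cycle, was higher there at 18.7 and 40.0. Acsl6, a long-chain acyl-CoA synthetase known from brain, was at 190.2 and 45.9, while Acsl1 of the same family was at 2.39 and 8.39 and the acyl-CoA carrier Dbi at 3.34 and 10.4. In that list 3 of 9 compared genes were higher and 1 lower (median 0.82), where 16.5% and 12% of all compared rows were. Among 27 compared genes of glycerophospholipid synthesis and acylation, 1 was higher and 2 lower (16.5% and 12% of all rows), with a median of 0.05. The lower genes were Mboat1, another lysophospholipid acyltransferase, at 7.67 and 0.875, and Agpat3, an acyltransferase of the same broad family as Lpcat4, at 30.6 and 6.84. Ptdss1, a phosphatidylserine synthase, was the higher gene, at 3.05 and 8.49.

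**Figure D4:**
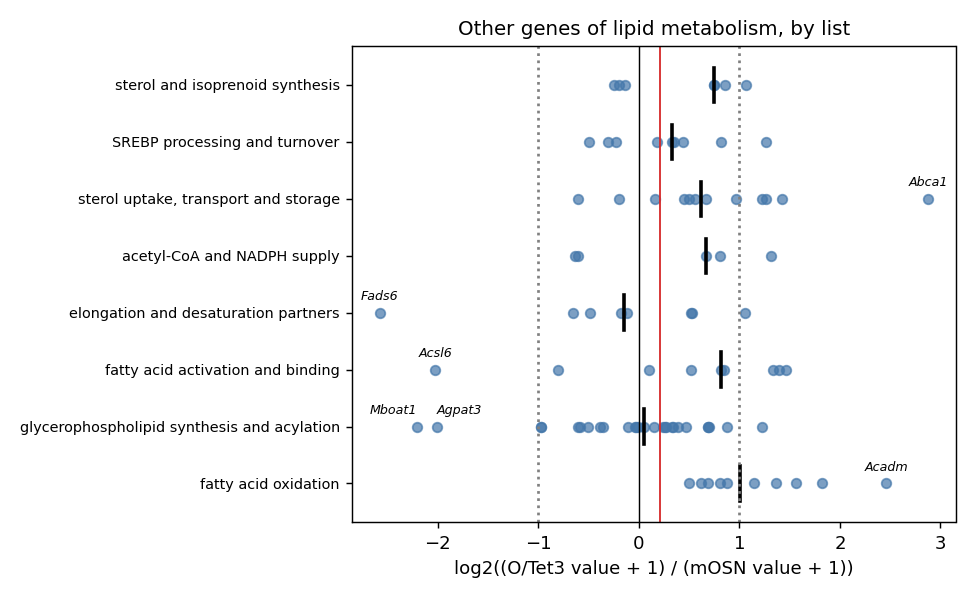
Log2 ratios of O/Tet3 over mOSN (value + 1) for compared genes of 8 further lists of lipid metabolism, one point a gene, with a black bar at each list's median, dotted lines at 2-fold and the red line at the median of all compared rows (0.21). All points of fatty acid oxidation lie right of 0 (median 1.01), and Fads6, Mboat1, Acsl6 and Agpat3 lie left of the left dotted line.

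The libraries also differed in neuron and support cell markers, and the part of these differences in the lipid genes was not tested. In bulk samples, fewer cells of a type and less RNA per cell cannot be told apart. For the counts below, 16.5% of all compared rows were called higher and 12% lower. All 12 mature neuron markers were called lower in O/Tet3, from 3309 to 757 in their summed value, with Omp at 298 and 139. Of 8 immature neuron markers, all compared, 4 were called higher, and the sum of the 8 was 97.4 in mOSN and 158 in O/Tet3. Gng8 and Sox11 reached the floor only in O/Tet3 and so had to lie higher there, and Sox11 is among the 4 called. Gap43, the growth cone protein, was at 6.41 and 34.8, while Tubb3 (23.6 and 13.7) and Dcx (29.0 and 19.1), both of the neuronal microtubule, were lower within 2-fold. Sustentacular cells support the neurons; of their 8 markers 1 of the 4 compared was lower and 0 were higher, with a sum of 23.1 and 6.30, and Cyp1a2 was listed at 0 in O/Tet3. Of 7 markers of ensheathing glia and myelin, a membrane known for its high sterol content, 1 of the 4 compared was lower and 0 higher. The lower one, Fabp7, reached the floor only in mOSN and so had to lie lower in O/Tet3. The sum was 8.30 and 3.24, and Sox10, S100b and Frzb were listed at 0 in O/Tet3. Of 9 markers of horizontal basal, gland and microvillous cells, 3 were compared, with 1 higher and 2 lower. The higher one, Pou2f3, reached the floor only in O/Tet3, and the lower ones, Cftr and Ascl3, only in mOSN. The floor thus set these directions. The sum was 4.44 and 3.69. Krt5, Krt14, Trp63, Cftr and Ascl3 were listed at 0 in O/Tet3 and Sox9 in mOSN. Globose basal and dividing cell markers summed to 1.56 and 2.92, and blood, immune and vessel markers to 60.9 and 40.3, with Cdh5 listed at 0 in both.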

How the data were processed

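2 RNA libraries, mOSN and O/Tet3, were used; the immunoprecipitated DNA sample was not analysed here. Per the submitters' processing notes, Bowtie, Bowtie2, Cuffdiff and build mm9 were used, without versions or roles; annotation and strand setting are not given in the sources used here. The authors deposited 1 table of log2 values, found from the file to be log2(value + 1): the lowest value is 0, and 99.4% of mOSN and 99.3% of O/Tet3 linear values above 0.01 have at most 6 significant digits, as Cuffdiff prints FPKM. Columns were assigned by their names. Linear values, folds and log2 ratios (pseudocount 1, floor 1 in either library) were computed with Python 3.11.15, pandas 2.3.3 and scipy 1.17.1; the ratio step was tested on simulated data. All members are named; of the other lists, Cyp51, up to 3 genes past 2-fold with the largest ratios, and some others chosen after their values were seen; some listed genes are not reported here and are left out of the lists. Members, lists and thresholds were chosen with earlier results of these data known. Without strand, reads of Fdft1 and Ctsb, Acaca and Tada2a, Lpcat2 and Capns2, and Lpcat3 and Emg1, which overlap in RefSeq, could not be separated. Alternatives changed pseudocount, floor, centring, scaling and fold.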

Additional observations from a re-analysis of the deposited data

How the results depend on the processing

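With 1 library per group there is no replicate check, and no replicate could be left out. Under 9 alternatives, 62 values of the main counts and medians stayed close to those reported (a count within 1.5 times, a median within 0.5) and 12 did not. With a pseudocount of 0.1, and with none, 13 members were higher and 2 lower, while the shares of all rows were 23.4% and 15.6%, and 24% and 13.1%. Centred on all rows, 4 were higher and 3 lower, where 11.3% and 15.1% of all rows were. Scaled to equal upper quartiles (a factor of 1.19), 4 were also higher and 3 lower, where 11.7% and 14.6% of all rows were. The higher share of the members' calls so moved from 8 of 9 to 4 of 7. The share of all rows called higher fell as well, from 16.5%. Centring subtracts 0.21 from every log2 ratio. Scaling divides the O/Tet3 values by 1.19 before the pseudocount is added, so it shifts low genes less. With scaling 31 members could be compared. At 3-fold 2 were higher and 1 lower, where 5.76% and 5.2% of all rows were. With a floor of 5 the median was 1.33 for SREBP control and 2.14 for desaturation and elongation, and with no floor 0.65 for fatty acid synthesis, since fewer or more genes enter. Of 239 single-gene values 229 stayed within 0.5 and 10 did not; the sign changed for Tm7sf2 alone. Fewer reads per unit of value in O/Tet3 limit genes near a value of 1. No paired analysis was possible because the libraries number 1 a group.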
